A study of Mus musculus with 298 samples.

Results

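Cytosolic ribosomal protein genes were described in neurons of the sympathetic ganglia of the mouse thorax, sequenced cell by cell. Members were all rows of the count table whose symbol is Rpl or Rps followed by a number, together with Rplp0, Rplp1, Rplp2 and Rpsa. The kinases named Rps6k and symbols marked as pseudogenes were left out. The rule found 82 of 16892 genes, and all 82 had counts. They comprised 42 proteins of the large subunit, 31 of the small subunit, the 3 P stalk proteins, 5 paralogs of other members and Rps19bp1, which is named for binding the small-subunit protein Rps19 and is not itself part of the ribosome.

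The table held 298 cells, each a sample, from mice of the cross Wnt1-Cre by R26R-Tomato, which labels cells descended from the neural crest. No genotype or treatment was compared. Polyadenylated RNA was read from cells captured on microfluidic chips of medium size and tagged with the Tn5 transposase. The submitters named 8 identities for 213 cells (Noradrenergic1 to Noradrenergic5 together 193 cells, Ach1 and Ach2 with 8 cells each, and Glutamatergic with 4) and left 85 cells unclassified. Cells came from 10 collections, each 1 combination of sex and age, at postnatal days 11, 16, 20, 30, 31, 33 and 34 in females and 29, 30 and 38 in males (P11 female and so on). Animals were not named, so the collection was taken as the replicate. For age, p-values measure the spread between collections. For identity and total count, they measure the spread left after the level of each collection was taken out. The sex label of the P16 female collection is in doubt, because 5 of its 5 cells held Y-linked counts, 28 in all, against 0 counts of Xist. A cell held between 7225 and 81589 counts (median 33099), and 0 columns of the table were identical.

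Ribosomal proteins, with the ribosomal RNAs, build the particles that translate every messenger RNA of the cytoplasm. Their genes are transcribed at high levels in all cell types, and their proteins are needed in near-equal numbers. Most of their messenger RNAs start with a C followed by a run of C and T bases, the 5′ terminal oligopyrimidine motif, through which mTORC1 and Larp1 set their translation and stability with the growth state of the cell.

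Stretches of 30 bases across the annotated RefSeq start sites (10 before, 20 after; GRCm38.p6) are shown for genes that the results below turn on, and for a pair with long pyrimidine runs. Capitals mark a C followed by at least 4 C or T bases that begins within 5 bases of the annotated start, read on the gene's strand. Start sites were matched for 61 of the 82 members. Rps21 has a further annotated start, not shown, without such a run.

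Rpl27a, chr7:109519185-109519214, plus strand: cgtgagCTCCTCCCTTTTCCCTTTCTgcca
Rpl35, chr2:39005112-39005141, minus strand: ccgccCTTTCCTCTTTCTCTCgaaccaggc
Rpl12, chr2:32961702-32961731, plus strand: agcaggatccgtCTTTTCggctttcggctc
Rpl22l1, chr3:28805498-28805527, plus strand: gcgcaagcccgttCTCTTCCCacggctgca
Rps12, chr10:23787190-23787219, minus strand: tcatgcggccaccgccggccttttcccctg
Rps21, chr2:180257369-180257398, plus strand: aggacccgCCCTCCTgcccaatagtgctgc
Rps7, chr12:28635934-28635963, minus strand: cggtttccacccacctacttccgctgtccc
Rpl13, chr8:123102340-123102369, plus strand: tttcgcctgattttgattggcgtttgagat

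Rpl27a and Rpl35, 2 large-subunit proteins, had runs of 20 and 16 bases, and Rpl12 and Rpl22l1 had runs of 6 and 8 bases just after the annotated start. Rps12, Rps7 and Rpl13 had no such run beginning within 5 bases of the annotated start; the pyrimidine stretches that can be read further into the Rps12 and Rps7 windows lie outside that reach. Across the members 31 of 72 start sites held the motif (43.1%), against 6027 of 32851 start sites of all genes (18.3%), 17 of 75 start sites of mitochondrial ribosomal protein genes (22.7%) and 4 of 14 start sites of a list of translation factors and other genes known for this motif (28.6%). A start site can have alternatives that lie elsewhere, so a missing match describes these letters only.

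Members were measured in nearly every cell, and together they held 3.33% of a cell's counts at the median. The lowest cell had 0.768% and the highest 6.84%. A count was present in all 193 noradrenergic cells for 27 of the 82 members. Rps27, a small-subunit zinc-finger protein, was seen in the fewest of these cells, 41 of 193. Levels are given below as counts per 10000 counts of the pooled cells. Over the 6 older collections of Noradrenergic3 the members' median levels ran from 0.0704 to 18 counts per 10000. Levels per kilobase used the longest of the transcripts that the annotation (GENCODE M21) marks as principal. By this measure Rps29 stood at 46.1 and Rplp1 at 31 counts per 10000, against 0.680 for Rplp0, the stalk protein that binds Rplp1. Whether the counts come from whole transcripts or from their ends is not given in the sources used here, so the order per kilobase is uncertain.

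Ribosomal protein genes have many processed copies in the mouse genome, and counts can be split between them. Of 81 members with an annotation, 32 shared over 50% of their 50-base windows with another annotated gene (median 43.9%, range 0 to 98.6%). In the table Rpl31 had 833 counts, and Rpl31-ps12, named as a pseudogene of it and not a member, had 8651. Rps15a had 924 counts and Rps15a-ps4 had 5286. Where those reads came from was not tested. The 6 pseudogene rows left out held 16087 counts, against 332576 in the members. Across the 81 members the level per kilobase and the shared share had a Spearman correlation of 0.03, and the level per kilobase and the number of pseudogenes sharing windows one of -0.27. Members share their reference sequence in families, and these are descriptions.

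**Figure D1:**
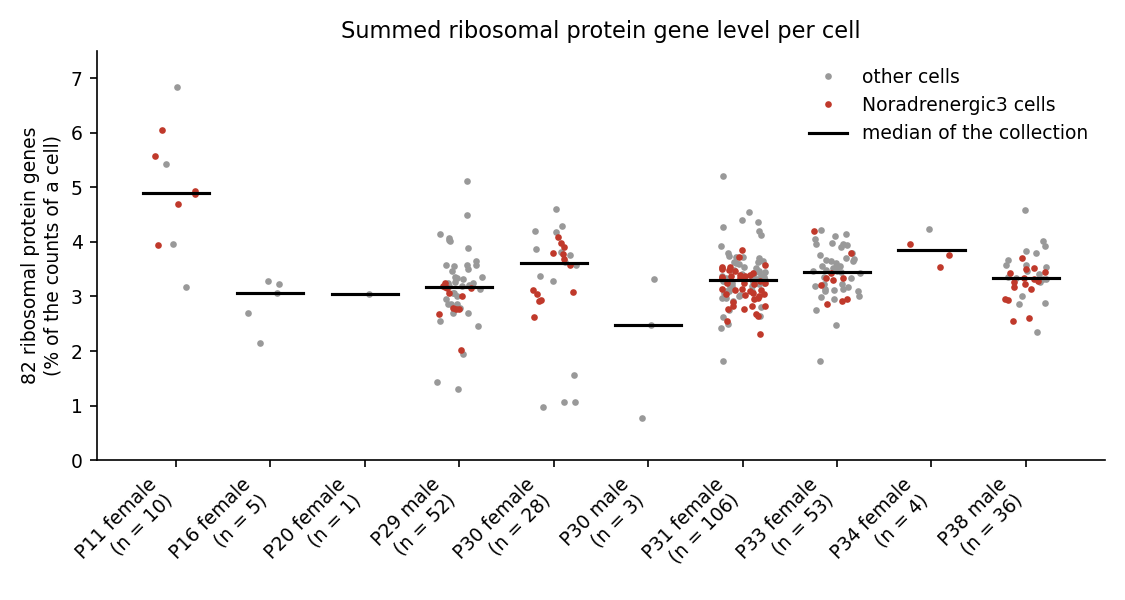
Percent of a cell's counts in the 82 ribosomal protein genes (y axis) for each of the 298 cells (points, spread sideways at random), by collection (x axis), with Noradrenergic3 cells in red and the collection's median as a line. The 10 P11 cells had a median of 4.90%, and 10 cells of other collections lay under 2%.

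The first comparison asked whether the identities of sympathetic neurons differ in their ribosomal protein genes. No member passed the test in any comparison. The summed level, as percent of pooled counts, was 3.36 ± 0.402 (SD, n = 5 collections) in Noradrenergic1, 3.19 ± 0.393 (n = 7) in Noradrenergic2 and 3.55 ± 0.729 (n = 7) in Noradrenergic3. It was 2.98 ± 0.556 (n = 5) in Noradrenergic4, 3.77 ± 0.804 (n = 6) in Noradrenergic5, 2.78 ± 1.15 (n = 7) in Ach1, 3.64 ± 0.239 (n = 4) in Ach2 and 2.99 ± 0.200 (n = 3) in Glutamatergic cells. These ranges overlapped in each pair of identities, apart from Ach2 and Glutamatergic, whose values ran from 3.29 to 3.82 and from 2.81 to 3.2. Many of these libraries were single cells. Ach1 was a single cell in 6 of 7 collections, so its spread is partly that between cells.

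**Figure D2:**
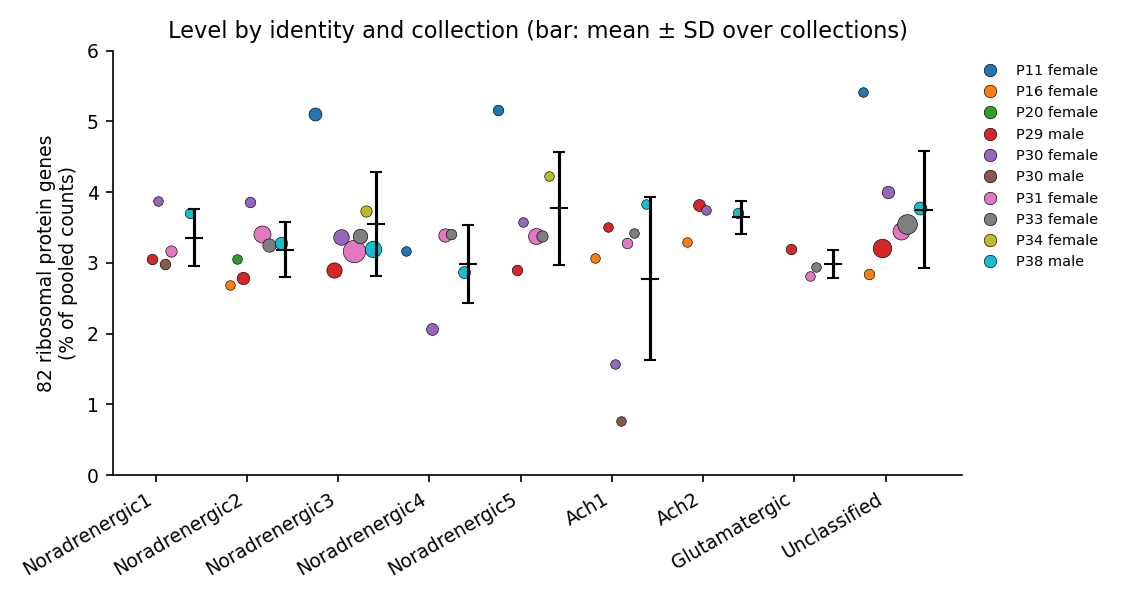
Percent of pooled counts in the 82 ribosomal protein genes (y axis) for each identity (x axis) and collection (colours), with larger points for more cells and black bars for the mean ± SD over collections. The P11 libraries of Noradrenergic3 and Noradrenergic5 stood above 5%, and 2 Ach1 cells of P30 and the P30 female Noradrenergic4 library stood lowest.

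None of the 82 members was called in any of 7 comparisons between identities by edgeR's quasi-likelihood test (adjusted p under 0.05, Benjamini-Hochberg over 11555 genes). Cholinergic against noradrenergic cells gave 0 members against 4.57% of all genes, with 1 member at an unadjusted p under 0.05. Glutamatergic against noradrenergic cells gave 0 members against 2.63% of all genes, with 17 at an unadjusted p under 0.05. Rpl23a, of the large subunit, and Rps24, of the small subunit, came closest there, with log2 fold changes of -1.66 (SE 0.52, adjusted p = 0.051) and -1.11 (SE 0.35, adjusted p = 0.0516). Each noradrenergic identity against the other 4 gave 0 members as well, against 1.39% of all genes for Noradrenergic1, 1.64% for Noradrenergic2, 1.74% for Noradrenergic3, 1.25% for Noradrenergic4 and 1.41% for Noradrenergic5. The members at an unadjusted p under 0.05 numbered 2, 2, 1, 12 and 1 in that order. The percentages of all genes above are at the adjusted cut. Shares of all genes at the unadjusted cut are not given here, so the counts of members at that cut have no background. DESeq2 called 2 members higher in Glutamatergic cells (Rps15 and Rpl21) and 1 lower in Noradrenergic4 (Rpl8), and 0 in the other 5 comparisons. The shares of all genes called by DESeq2 are not given here.

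The members' median log2 fold change lay near that of all genes tested in most of these comparisons. It was -0.08 in cholinergic cells (all genes -0.20), -0.40 in Glutamatergic cells (-0.39), -0.05 in Noradrenergic1 (-0.15), 0.16 in Noradrenergic2 (0.09), 0.17 in Noradrenergic3 (0.16) and -0.01 in Noradrenergic5 (-0.03). In Noradrenergic4 it was -0.28 against 0.03, with 66 of 82 members below 0. That value moved with single collections: it was -0.15 without P11 and -0.46 without P31 females. Without P11, 3 members in place of 12 had an unadjusted p under 0.05, again without a share of all genes beside them. The all-gene medians depend on the scaling: with DESeq2's size factors in edgeR (RLE) the median of all genes was 0.02 in Glutamatergic cells and that of the members 0.0023.

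The low values of Noradrenergic4 came from few cells. Its summed level was 3.17% at P11 (1 cell), 2.07% in P30 females, 3.40% in P31 females, 3.41% in P33 females and 2.88% in P38 males. Against the other 4 noradrenergic identities of the same collection it was higher in 2 and lower in 3 of 5 collections, with a mean log2 ratio of -0.30 (SD 0.39). At P30, 3 Noradrenergic4 cells of 1 chip had 0.970%, 1.07% and 1.07%, with totals of 15527 to 25262 counts. An Ach1 cell of the same chip had 1.57% at 56210 counts. The lowest cell of the series was an Ach1 cell of the P30 male collection, with 107 member counts of 13927 (0.768%). Noradrenergic5 showed the opposite sign by this measure, higher than the other noradrenergic cells in 6 of 6 collections but by little (mean log2 ratio 0.09, SD 0.07), while its fitted median was -0.01. Fibroblast markers moved with Noradrenergic5, where 3 of 5 tested were called higher (Col1a1, Lum and Col1a2, log2 fold changes 3.14, 3.59 and 1.73, edgeR adjusted p = 0.000167, 0.00172 and 0.0472). In Noradrenergic3, 2 of 5 fibroblast and 1 of 2 endothelial genes tested were called higher too. The same held for 1 of 1 macrophage and microglia genes tested in Noradrenergic1. It also held for 1 of 13 satellite glia and Schwann cell genes in Noradrenergic4. The summed fibroblast list of 6 genes had a median of 0.203 counts per 10000 per cell in Noradrenergic5 and 0 to 0.409 in the other noradrenergic identities. The highest cell for this list had 98.9 in Noradrenergic3 and 20.2 in Noradrenergic5. The part of these markers in the results was not tested.

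The satellite glia and Schwann cell list, 14 genes, had a median summed level per cell of 29.7 counts per 10000 in Ach1, 29.6 in Ach2 and 27.3 in Glutamatergic cells, against 5.26 to 10.0 in the noradrenergic identities. The immediate-early and stress list ran from 12.1 to 22.2 in the noradrenergic identities. It stood at 22.3 in Ach1, 34.5 in Ach2 and 58.1 in Glutamatergic cells. With the glial level as a covariate, 0 members were called in both comparisons. Markers of the identities followed the labels, which may have been drawn from the same counts, so this is no independent check of them. In the sympathetic neuron list 6 of 12 genes were lower in cholinergic and 8 of 12 in Glutamatergic cells, led by Slc6a2, the noradrenaline transporter (log2 fold changes -3.65 and -2.64, edgeR adjusted p = 8.24e-45 and 6.56e-09). Of 33 mitochondrial ribosomal protein genes, 1 was lower in both comparisons, Mrpl16 (-0.88 and -1.89, adjusted p = 0.00862 and 0.00697), and 1 lower in Noradrenergic5, Mrps34 (-1.43, adjusted p = 0.0287). The lists of elongation and initiation factors, ribosome assembly, mTORC1 and other ribosomal proteins gave 0 calls in the 7 comparisons. The 2 subunits kept their proportion, with 1.14 to 1.24 counts of large-subunit and stalk genes for each count of small-subunit genes in the 8 identities.

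The stalk proteins, the laminin-binding protein Rpsa and the paralogs were likewise not called in the comparisons between identities given above. Rplp1, an acidic stalk protein and among the most abundant members, ran from 12.9 ± 5.76 counts per 10000 (SD, n = 7 collections) in Ach1 to 19.9 ± 3.55 (n = 6) in Noradrenergic5. Its partner Rplp2 ran from 6.64 ± 3.02 in Ach1 to 10.3 ± 1.37 (n = 4) in Ach2. Rplp0, the scaffold of the stalk, stood between 0.744 and 1.12. Rpsa ran from 5.78 ± 2.70 in Ach1 to 10.1 ± 2.74 in Noradrenergic5, and had the smallest unadjusted p of the cholinergic comparison (-0.43 on the log2 scale, SE 0.20, adjusted p = 0.245 by edgeR). In none of these 4 genes did an extreme identity stand clear of its neighbours beyond the SDs.

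The paralogs, relatives of other members, had their own levels. Rpl22l1, the paralog of Rpl22, ran from 0.688 ± 0.217 counts per 10000 (SD, n = 7 collections) in Noradrenergic2 to 1.44 ± 0.919 (n = 5) in Noradrenergic4, and Rpl36al, the paralog of Rpl36a, from 4.20 ± 2.48 (n = 3) in Glutamatergic cells to 6.94 ± 0.706 (n = 4) in Ach2. Rps27l ran from 1.27 ± 0.640 in Glutamatergic cells to 2.95 ± 1.06 (n = 6) in Noradrenergic5. For each of these paralogs the mean ± SD intervals of the extremes overlapped, for Rps27l only just. Rpl7l1 was rare, between 0.0652 and 0.283. Rps4y2, listed by RefSeq under Rps4l as a transcribed pseudogene, was uneven, with 0.587 ± 0.770 in Ach1, 0.686 ± 0.533 in Noradrenergic5 and 2.61 ± 2.28 in Ach2. In Noradrenergic5 it differed by -1.59 on the log2 scale (SE 0.59, adjusted p = 0.313 by edgeR), and with libraries of at least 2 cells it was called there (-1.48, adjusted p = 0.00243).

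The second comparison asked how the members vary with postnatal day. It was made within Noradrenergic3, the largest identity, which had at least 3 cells in 7 collections (6 at P11, 12 in P29 males, 13, 43, 10 and 3 in females of P30, P31, P33 and P34, and 16 in P38 males). The summed level of ribosomal protein genes was higher in the P11 collection than in each of the collections from P29 to P38. The summed level was 5.10% of counts at P11, against 2.90% in P29 males, 3.37% in P30 females, 3.16% in P31 females, 3.38% in P33 females, 3.73% in P34 females and 3.2% in P38 males. The P11 value was 1.55 times the median of the other 6, and the 6 P11 cells, from 3.94% to 6.06%, overlapped only the top cells of later collections. Depth was alike, with a median total of 35806 counts at P11 and 33034 to 38426 later.

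The fit with age as a slope per 10 days called 14 of 82 members lower with age and 0 higher, against 1.41% of the 10141 genes tested called in either direction (edgeR's quasi-likelihood test, adjusted p under 0.05). The median slope of the members was -0.21 on the log2 scale, against 0.03 over all genes, and 67 of 82 slopes were below 0. The 14 were 8 core large-subunit genes (Rpl7, Rpl12, Rpl18, Rpl23, Rpl28, Rpl32, Rpl36, Rpl39), 4 small-subunit genes (Rps12, Rps13, Rps20, Rps23) and the paralogs Rpl22l1 and Rps4y2. The called genes with a matched start site comprised 6 with the pyrimidine motif and 3 without, and the median slope was -0.21 both in the 29 members with it and in the 32 without it.

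Rps20, a small-subunit head protein (chromosome 4, 3831334 to 3835665, minus strand; GRCm38), stood at 19.1 counts per 10000 at P11 and at 7.94 to 10.4, median 9.39, in the 6 older collections. Its P11 value lay above every later one, with a slope of -0.46 per 10 days (SE 0.09, edgeR adjusted p = 0.000889). Rps12 (chromosome 10, 23785183 to 23787275, minus strand), another small-subunit protein, stood at 9.53 against 3.18 to 5.22, median 4.21 (slope -0.50, SE 0.09, edgeR adjusted p = 0.00103). Rpl7, of the large subunit (chromosome 1, 16101295 to 16104662, minus strand), stood at 5.38 against 1.88 to 2.91, median 2.23 (slope -0.52, SE 0.10, edgeR adjusted p = 0.00128). In these genes too the 2 age groups did not overlap. Rpl12, part of the base of the stalk (chromosome 2, 32961559 to 32965345, plus strand), stood at 6.84 against 2.65 to 3.40, median 2.82 (slope -0.50, SE 0.10, edgeR adjusted p = 0.00141). Rpl22l1, the paralog of Rpl22 (chromosome 3, 28805436 to 28807424, plus strand), stood at 2.25 against 0.428 to 1.03, median 0.791 (slope -0.66, SE 0.14, edgeR adjusted p = 0.00378). The counts behind the Rpl22l1 values ran from 5 in the P34 library to 123 in that of P31.

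The same shape was seen beyond the called genes. In 52 of 82 members the P11 library lay above all 6 older ones, against 20.8% of 10148 genes, and in 3 members, Rpl10 and Rps15a among them, it lay below all of them, against 24.5% of the same genes. These counts describe the same libraries as the fit. The 3 genes of the P stalk were among the 52. Rplp1 stood at 23.2 at P11 against 13 to 16.7, Rplp2 at 15.8 against 7.92 to 11.1 and Rplp0 at 1.63 against 0.513 to 1.19. None of the 3 passed the test (edgeR adjusted p = 0.086, 0.0586 and 0.205). Rpsa stood at 11.9 against 6.47 to 7.98 (adjusted p = 0.0746). Of the paralogs, 3 of 5 lay above all older collections, Rpl22l1, Rps4y2 (2.82 against 0.843 to 1.85) and Rps27l (3.04 against 1.82 to 2.72). The other 2, Rpl36al, at 5.69 against 4.11 to 6.47, and Rpl7l1, at 0.221 against 0.140 to 0.342, overlapped the later collections. Rpl10, an X-linked large-subunit protein, stood at 1.28 at P11 against 1.66 to 2.62. The proportion of the subunits did not follow age, with 1.16 counts of large-subunit and stalk genes for each small-subunit count at P11 and 1.13 to 1.21 later.

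**Figure D3:**
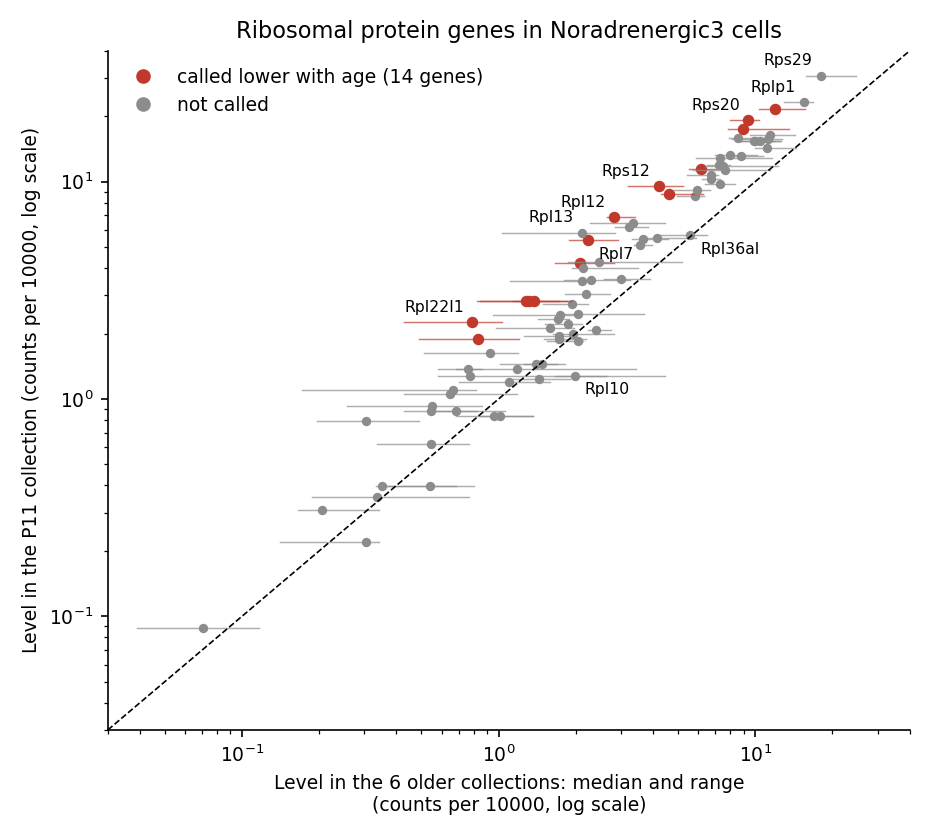
Level of each of the 82 genes in the P11 collection of Noradrenergic3 (y axis) against the median (point) and range (line) of the 6 older collections (x axis), in counts per 10000 on log scales, with the 14 genes called lower with age in red and the dashed line at equal levels. Most points lie above the line, and Rps20 stood at 19.1 against a median of 9.39.

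The decline rests on the P11 collection alone, which was 10 cells from 1 chip. Without it 0 members were called lower and 3 higher, against 0.0699% of 10016 genes, and the members' median slope was 0.09. The 3 were Rps7, Rpl10a and Rps21, whose slopes rest on the P38 library and which are described below. No Noradrenergic3 cell was younger than P29 outside that collection. The 5 P16 cells (1 Ach1, 1 Ach2, 1 Noradrenergic2 and 2 unclassified) had 2.14% to 3.29% and the single P20 cell (Noradrenergic2) 3.05%, and the P11 cell of Noradrenergic4 had 3.17%. Age, chip and collection cannot be told apart at P11, where all cells were of 1 chip and 1 sex.

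Other lists moved with the P11 library. In its Noradrenergic3 cells the summed level of translation factors and related genes (20 genes) was 109 counts per 10000, against 78.8 to 90.5 later, that of mitochondrial ribosomal proteins (33 genes) 45.5 against 30.2 to 36.4, and that of ribosome assembly genes (24 genes) 21.2 against 15.9 to 17.2. The mTORC1 and Larp1 list (14 genes) lay within the later range, at 6.93 against 6.16 to 7.45. In the fit, 1 of 19 translation factor and related genes was called lower with age, Pabpc1, the poly(A)-binding protein (slope -0.67, SE 0.10, edgeR adjusted p = 1.34e-05), and 0 genes were called in either direction in the lists of mitochondrial ribosomal proteins (33 tested), ribosome assembly (24), mTORC1 and Larp1 (13) and other ribosomal proteins (3).

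Some lists of cell markers and the stress genes also differed at P11. The summed satellite glia and Schwann cell list was 3.84 counts per 10000 at P11, with 7 of 14 genes at 0, against 10.1 to 16.2 later. The sympathetic neuron list (12 genes, 0 at 0) was 152 against 196 to 214, and the immediate-early and stress list (19 genes, 3 at 0) was 6.62 against 13.2 to 20.8. In the fit 3 of 12 sympathetic neuron genes were higher with age, Dbh, Slc6a2 and Ddc (slopes 0.59, 0.52 and 0.39, edgeR adjusted p = 0.000802, 0.00265 and 0.0251), and 1 of 19 stress genes, Fos (0.78, adjusted p = 0.0155). Macrophage markers were at 0 in 9 of 9 genes, within the later range of 0 to 0.117, and fibroblast markers were within theirs. The endothelial list, with 6 of 7 genes at 0, was near the floor, at 0.0441 against 0.0491 to 0.957. The part of these lists in the higher ribosomal protein level was not tested.

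The genes whose level was most like the summed member level, over 18 libraries of at least 3 cells and 3542 genes, were Rpl31-ps12 (Pearson r = 0.963), Gnb2l1, the ribosomal scaffold also called Rack1 (0.920), Uqcrq, a subunit of respiratory complex III (0.907), Gm13826 (0.901) and Gm6654 (0.900). Without the P11 library these values were 0.937, 0.876, 0.888, 0.861 and 0.830 over 17 libraries. The libraries share collections, and a library with more of 1 gene class has less of the rest by construction.

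The third pattern belonged to single genes in the P38 male collection. Rps7, a small-subunit protein (chromosome 12, 28630854 to 28635953, minus strand), stood at 3.37, 3.95, 4.07 and 5.32 counts per 10000 in noradrenergic cells of the 4 P38 chips, against 0.540 to 1.24 on the other 12 chips with at least 4 such cells. Rpl10a, of the large subunit (chromosome 17, 28328471 to 28331033, plus strand), stood at 1.85, 2.86, 3.41 and 3.73 against 0.646 to 1.64. Rps21, a small-subunit protein, stood at 4.03, 4.98, 5.39 and 6.07 against 1.65 to 3.80, and Rps14, a core small-subunit protein, at 3.30, 3.66, 3.67 and 3.89 against 1.64 to 2.39. In all 4 genes each P38 chip lay above every other chip, P29 males included. Such a separation was seen in 4 of 82 members (4.88%) and in 0.195% of 11276 genes. This pattern was noticed after the values were seen, and is given without a test.

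The difference was held by single cells and by several identities. A count of Rps7 was present in 27 of 27 noradrenergic P38 cells and in 148 of the other 166, at a pooled level of 4.14 against 0.858, with median totals of 38339 and 37244 counts. For Rpl10a the pooled levels were 3.21 and 1.13, and for Rps21 5.16 and 2.14. Rps7 was higher in the P38 cells of 6 of 6 identities that had them: 5.08 against 0.577 in Noradrenergic1 (2 P38 cells), 4.58 against 0.900 in Noradrenergic2 (5), 4.47 against 0.821 in Noradrenergic3 (16), 2.17 against 0.997 in Noradrenergic4 (4), 5.89 against 0.742 in Ach1 (1) and 5.36 against 0.729 in Ach2 (2).

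**Figure D4:**
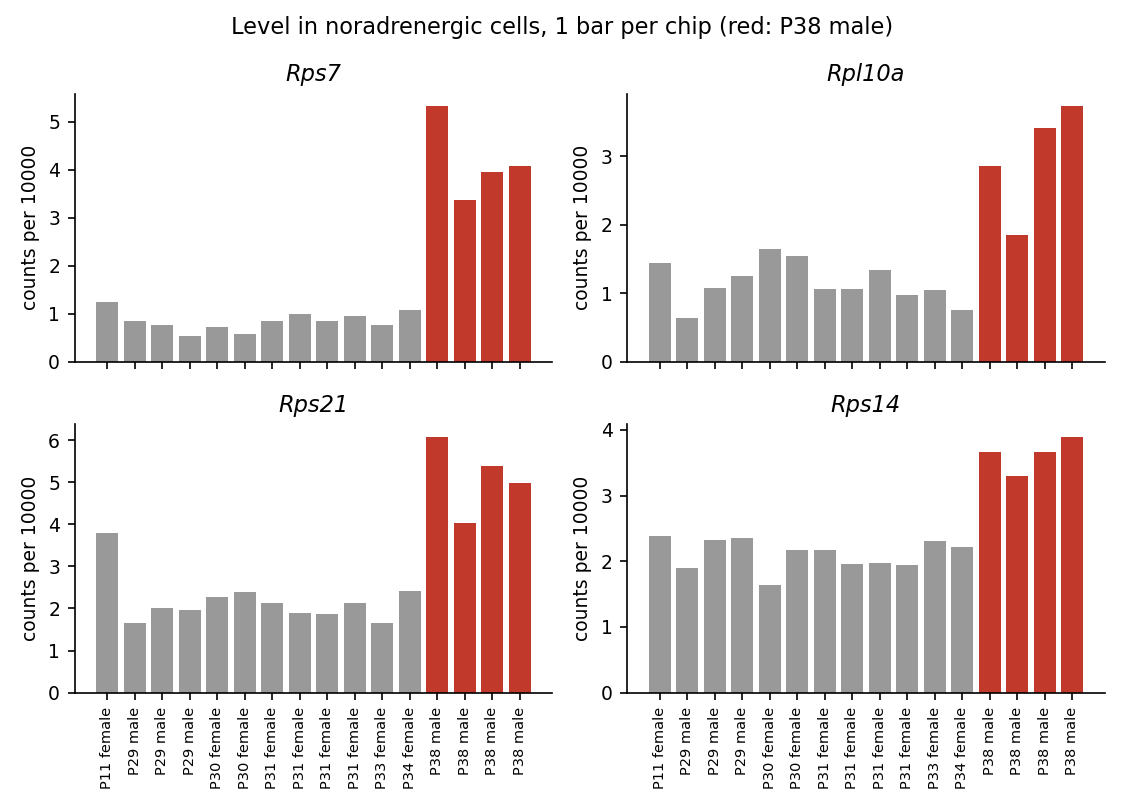
Level of Rps7, Rpl10a, Rps21 and Rps14 in noradrenergic cells (y axis, counts per 10000), 1 bar per chip with at least 4 noradrenergic cells (x axis, chips named by collection), with the 4 P38 male chips in red. Each red bar is higher than every grey bar of its panel.

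The summed member level did not follow these 4 genes, at 3.00% to 3.42% on the P38 chips and 2.74% to 4.88% on the others. The other 18 genes above all other chips at P38 included Eef1a1, an elongation factor (16.7 to 23.1 against 7.96 to 10.8), and the unnamed loci Gm10653, Gm6525 and Gm4832, and 23 genes lay below all other chips, of which 0 were members. The 4 members share 26.4% to 88.1% of their 50-base windows with other annotated genes, most of them processed pseudogenes. For Rps7 the shared part was 59.9%, with 16 pseudogenes, and for Rpl10a it was 88.1%, with 5. Whether reads moved between genes and their copies in those libraries was not tested.

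The last comparison asked whether the members follow the total count of a cell. Noradrenergic3 cells of each collection with at least 6 of them were split at the median total, taken without the members' own counts, into a deeper and a shallower set. The summed level was higher in the deeper cells of 3 collections and lower in 3, with a mean log2 ratio of 0.03 (SD 0.12, n = 6). It was 5.34% against 4.77% at P11, 2.87% against 2.95% in P29 males, 3.22% against 3.52% in P30 females, 3.2% against 3.12% in P31 females, 3.55% against 3.14% in P33 females and 3.17% against 3.25% in P38 males. Across cells the Spearman correlation of the summed level with the total ran from -0.54 in the 13 P30 female cells to 0.65 in the 10 P33 female cells, and was 0.08 in the 43 P31 female cells. The member level is a share of the same total, so these are descriptions.

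A single member was called, Rpl13, a large-subunit protein (chromosome 8, 123102350 to 123105244, plus strand), against 0.0694% of 10082 genes. In the shallower and the deeper cells it stood at 8.23 and 4.09 counts per 10000 at P11, 3.67 and 1.53 in P29 males, 3.10 and 2.62 in P30 females, 2.48 and 1.26 in P31 females, 1.43 and 0.907 in P33 females and 2.94 and 2.24 in P38 males. It was lower in the deeper cells of 6 of 6 collections, by -0.71 on the log2 scale (SE 0.12, adjusted p = 4.88e-05 by edgeR). The counts behind these values ran from 17 to 177. Without the P31 collection the adjusted p was 0.0589 (log2 fold change -0.65), and DESeq2 gave 0.492 (-0.73). Rpl13 shares 80.3% of its windows with other annotated genes, 14 of them pseudogenes. No other member passed the test, and the members' median log2 fold change was 0.02, against 0.01 over all genes.

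**Figure D5:**
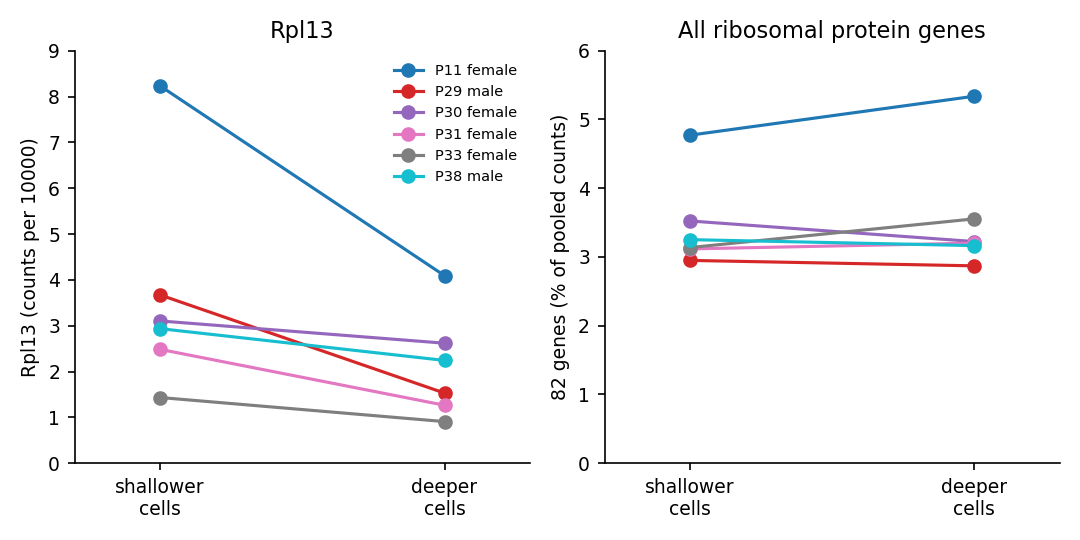
Level of Rpl13 in counts per 10000 (left) and of the 82 genes as percent of pooled counts (right) in the shallower and the deeper Noradrenergic3 cells of 6 collections (coloured lines). Rpl13 fell along all 6 lines, from 8.23 to 4.09 at P11, while the summed level rose along 3 and fell along 3.

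Within 1 collection the members varied together from cell to cell. In the 43 Noradrenergic3 cells of the P31 female collection, 25 members had a mean level of at least 5 counts per 10000. The 300 pairs among them had a median Pearson r of 0.294, on log2 of counts per 10000 plus 1, and 95.3% of pairs were above 0. Over all pairs of the 311 genes at that level the median was 0.0473 and 57.9% were above 0, and between members and other genes the median was 0.0887. The cells share a collection but came from several chips, and differences between chips were not taken out. Low counts weaken such correlations.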

How the data were processed

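RNA of 298 single cells was measured. The table holds counts per gene and cell, deposited by the authors; reads were mapped to mouse build mm10, per the submitters' processing notes. The aligner, the counter, the annotation and any collapsing of molecules are not given in the sources used here. Members and gene lists were chosen with earlier results of these data known. Identities are the submitters' own and may have been drawn from the same counts.

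Counts were summed per identity and collection into 44 libraries, and the 85 unclassified cells entered no comparison between identities. edgeR 4.0.16 (R 4.3.3) fitted a robust quasi-likelihood model with TMM scaling, identity and collection to genes detected in 3 or more libraries and summing to 20 or more, with Benjamini-Hochberg adjustment over all genes. Age was fitted in Noradrenergic3, and depth in its deeper and shallower cells. Libraries of 1 collection deviated together (4 pairs of libraries with at least 5 cells, r 0.282 to 0.411, against a mean of -0.0740 over 20 pairs of different collections, 1914 genes), so collection was kept as a block. The scripts were tested on simulated data. Genes named are the members called (the 5 with the smallest p where over 10 were), the stalk genes, Rpsa and the paralogs, up to 3 called genes of each other list, and the 5 genes most like the summed level; Rps7, Rpl10a, Rps21 and Rps14 were added after their values were seen. Alternatives were other scalings, no filter, DESeq2 1.42.0, no block, libraries of at least 2 cells, a glial or sex covariate, and leaving out each collection. Totals of 7225 to 81589 counts per cell limit the rarer members. The 6 pseudogene and 10 Rps6k genes were left out, and 0 columns of the table lacked a sample. Some genes are not reported here by name.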

Additional observations from a re-analysis of the deposited data

Results flagged for a closer look

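A single collection lay far from the others in 12 of 25 sets of values examined, and all 12 were within Noradrenergic3. The sets were the summed level over collections in each identity but Glutamatergic and in the unclassified cells, and single genes in Noradrenergic3. Chance flags about 1 in 20 sets, but that rate cannot be set against this count: Rps20, Rps12, Rpl7, Rpl12 and Rpl22l1 were named for the smallest p of the age fit, which rests on P11, and Rps7 and Rpl10a were added after their P38 values were seen. In 10 of the 12 flagged sets it was the P11 female collection. The summed level of ribosomal protein genes was 5.10% there, with 3.73% next. Rps20 stood at 19.1 counts per 10000 (next 10.4), Rps12 at 9.53 (5.22), Rpl7 at 5.38 (2.91), Rpl12 at 6.84 (3.40) and Rpl22l1 at 2.25 (1.03). The stalk genes Rplp1 and Rplp2 stood at 23.2 (16.7) and 15.8 (11.1), Rpsa at 11.9 (7.98) and Rpl13 at 5.82 (2.85). These sets share their libraries and are not independent of each other. In the other 2 the P38 male collection stood apart, with Rps7 at 4.47 (next 1.28) and Rpl10a at 3.42 (1.5).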

How the results depend on the processing

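Counts of called members depended on the setting. The shares of all genes called under these settings are not given here, apart from the age fit without P11. The counts of members can therefore not be set against a background. For Glutamatergic cells they were 2 without a filter (Rpl23a and Rps24, lower), 2 with DESeq2 (Rps15 and Rpl21, higher) and 1 with libraries of at least 2 cells, against 0. That last setting gave 2 in Noradrenergic1, 1 in Noradrenergic4 and 1 in Noradrenergic5, and DESeq2 gave 1 in Noradrenergic4. Leaving out each collection gave 0 to 1 for cholinergic cells, 0 to 2 for Glutamatergic cells and 0 to 1 for Noradrenergic5. For age it gave 3 to 20 (14 with all), the 3 being higher and found without P11, and all noradrenergic cells gave 8. Without P11 the slope of Rps12 was 0.0069, of Rpl12 0.033 and of Rps21 1.40; with each other collection left out they were negative for Rps12 and Rpl12, and the ranges were -0.61 to 0.0069, -0.61 to 0.033 and -0.48 to 1.40. For depth, leaving out each collection gave 0 to 3 calls, the 3 without P30 females (Rpl13 lower, Rpl4 and Rpl32 higher), and DESeq2 gave 0. Without the block of collections the depth comparison gave 0 calls (Rpl13 adjusted p = 0.997, edgeR), and the block changed no call between identities. Ach1, Ach2, Glutamatergic and P11 libraries hold few cells, which limits what can be detected there. The causes were not tested.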

Other observations

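The 85 unclassified cells, which entered no comparison, held 1.31% to 5.42% of their counts in ribosomal protein genes, with a median of 3.52% and a median total of 22977 counts. With the 6 pseudogene genes added, a choice made after seeing the data, the P11 level in Noradrenergic3 was 5.39%, against 3.04% to 3.93% in the older collections.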
